A study of Mus musculus with 7 samples.

Results

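The 4 facilitative glucose transporters Slc2a1, Slc2a2, Slc2a3 and Slc2a4 (GLUT1, GLUT2, GLUT3 and GLUT4) were examined in soleus muscle of 129/SV mice. They are the 4 genes of that family with a spot on the array, out of 203 genes with a symbol, and they were selected by gene symbol, with earlier results of these data known. Each has 1 spot, designed on the accession M23384 for Slc2a1, X16986 for Slc2a2, M75135 for Slc2a3 and M23383 for Slc2a4. The study holds 1 group of 7 samples, the soleus of wild-type mice kept as cage controls, with 1 array for each sample. Soleus is a hindlimb muscle of posture with many slow, oxidative fibres. Neither age nor sex is given in the labels. The submitters call the samples replicas, and nothing states that they came from separate animals, so p-values measure the spread between these samples only, which may be technical. The sample titles carry the code C15, except that of replicate 5, which carries C16, and each title ends in a different number. The meaning of the codes and of the numbers is not given. Since all samples share 1 condition, the questions are how far each transporter's signal stood above the low end of its array, how the 4 signals related to one another, and how much each varied.

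The SLC2 proteins carry glucose across membranes down its concentration gradient, without using energy. GLUT4 is the insulin-responsive form of muscle and fat: it is stored in vesicles inside the cell and moves to the surface after insulin or contraction, so its transcript level is not its transport activity. GLUT1 serves basal uptake in many cell types and is abundant in the endothelium of barriers. GLUT3 has a high affinity for glucose and is known best from neurons. GLUT2 has a low affinity and is known from liver, pancreatic beta cells, kidney and intestine.

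Every value here is a spot's percent share of the array sum, which adds up all spots except the 28S ribosomal RNA spot and an unnamed bright spot. The deposited values come in steps of 0.01%. The array carries no background reading or detection call. The 10th percentile of the spots of an array was therefore taken as its floor, and a gene was called above the floor where it exceeded 2 times that value on all 7 arrays. The floor was 0.13%, 0.06%, 0.05%, 0.03%, 0.02%, 0.06% and 0.09% in replicates 1 to 7, a range of 6.5-fold. By this rule 44 of the 203 genes (21.7%) lay above the floor. A value near the floor does not show that a transcript was absent. Of the muscle markers, 7 of 9 were on the array (Myh7, Myh2, Myh1, Myh4, Mb, Des and Ttn), and all 7 lay above the floor, with a summed signal of 23.25% to 31.97%.

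Slc2a4 and Slc2a2 lay above the floor, and Slc2a1 and Slc2a3 lay near it. Thus 2 of the 4 transporters were called, beside 21.7% of all genes. All 4 exceeded the floor itself on all 7 arrays, with lowest multiples of 1.6 for Slc2a1 and 1.4 for Slc2a3. The floor is a low percentile of an array's own spots, so most spots exceed it by definition. Exceeding the floor therefore does not show that a transcript was detected. The 4 signals together made up 0.74% to 1.29% of the array sum. Slc2a4 contributed 52.4% ± 6.28 (SD, n = 7) of that transporter signal, Slc2a2 24.1% ± 2.41, Slc2a1 11.8% ± 2.83 and Slc2a3 11.6% ± 3.84. These shares include the floor and add signals of different spots, so they do not give the make-up of the transcripts.

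Slc2a4, the insulin-responsive transporter, stood at 0.53%, 0.56%, 0.43%, 0.39%, 0.47%, 0.65% and 0.58% in replicates 1 to 7. It was highest in replicate 6 and lowest in replicate 4, and on every array it was the strongest of the 4 spots. Its mean was 0.516% ± 0.0909 (SD, n = 7). Over the floor of the same array its signal ranged from 4.08 times in replicate 1 to 23.5 times in replicate 5, with a mean of 10.8 ± 6.29. Replicate 1 has the highest floor and replicate 5 the lowest. The floor of replicate 5 has 1 significant digit, and rounding alone allows 18.6 to 31.7 times there. The lowest multiple of the floor over the arrays put Slc2a4 at place 23 of the 203 genes.

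Slc2a2, the form of liver and beta cells, was the other transporter above the floor. Its signal was 0.32%, 0.26%, 0.20%, 0.21%, 0.18%, 0.25% and 0.25% in replicates 1 to 7. Replicate 1 was highest and replicate 5 lowest. The mean was 0.239% ± 0.0467 (SD, n = 7), and the multiple of the floor ran from 2.46 in replicate 1 to 9 in replicate 5. The call was closer to the limit than that of Slc2a4: at 3 times the floor, Slc2a4 alone remained called, since Slc2a2 stood at 2.46 and 2.78 times in replicates 1 and 7. The genes nearest to the limit of 2 were Timp2, Dgat1 and Srf inside it, with lowest multiples of 2.11, 2.17 and 2.20, and Cd34, Myf6 and Pecam1 outside it, each with exactly 2. None of the 3 liver markers listed (Alb, Apoa1, Ttr) was among the genes analysed, so a liver transcript other than Slc2a2 could not be read for comparison.

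Slc2a1, the basal transporter, was at 0.21%, 0.15%, 0.08%, 0.08%, 0.06%, 0.12% and 0.16% in replicates 1 to 7. It exceeded 2 times the floor on 3 arrays, those of replicates 2, 4 and 5, and its highest deposited value, in replicate 1, was only 1.62 times the floor there. Its mean was 0.123% ± 0.0538 (SD, n = 7), or 2.17 ± 0.557 times the floor. Rounding of the deposited values allows 1.77 to 2.27 times in replicate 6, where the ratio printed is exactly 2. Slc2a3, the high-affinity form, was at 0.23%, 0.13%, 0.07%, 0.06%, 0.07%, 0.11% and 0.19%. It too exceeded 2 times the floor on 3 arrays, those of replicates 2, 5 and 7, and averaged 0.123% ± 0.0655, or 2.11 ± 0.664 times the floor. For both genes the high samples were replicates 1, 2 and 7 and the low ones replicates 3, 4 and 5.

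**Figure D1:**
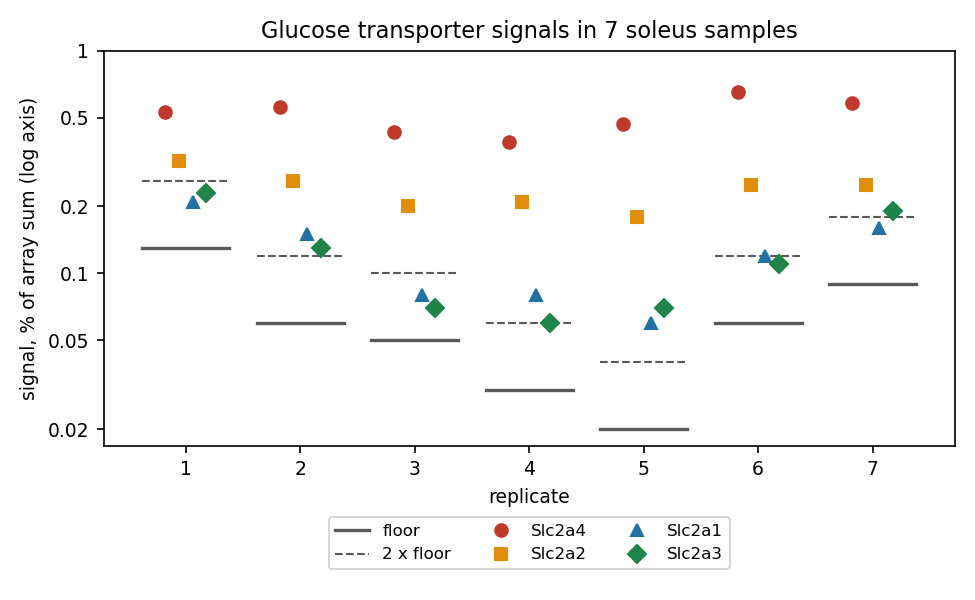
Signal of the 4 transporter spots (percent of the array sum, log axis) in each of the 7 soleus samples, with the floor of each array as a solid line and 2 times the floor as a dashed line. Slc2a4 (0.39% to 0.65%) and Slc2a2 (0.18% to 0.32%) lie above the dashed line on all 7 arrays, while Slc2a1 and Slc2a3 lie around it and follow the floor from array to array.

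Some markers of other cell types also lay above the floor. Of 5 endothelial markers on the array, 1 lay above the floor, the endothelial cadherin Cdh5 at 0.209% ± 0.0738 (SD, n = 7), beside 21.7% of all genes. Pecam1, Kdr, Tek and Flt1 did not, and the 5 summed to 0.45% to 1.06%. Of 2 adipocyte markers, Fabp4 lay above the floor at 0.466% ± 0.0864 and Pparg did not. The 2 immune markers Il1b and Il6 and the fibroblast marker Fn1 lay near the floor. The listed markers of nerve and red cells were not among the genes analysed. No spot of the array had a value at or under 0, so a marker signal above 0 does not show that a cell type was present. The part of these cells in the transporter signals was not tested, and in whole muscle fewer cells of a type and less RNA per cell cannot be told apart.

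The 4 transporters have successive spot names, 19F for Slc2a1, 19G for Slc2a3, 19H for Slc2a4 and 19I for Slc2a2, which are read here as positions on the array. Slc2a2 thus lies between Slc2a4 and Hadh, a beta-oxidation enzyme at 0.674% ± 0.0907 (SD, n = 7), and beside Pgk1, a glycolytic enzyme at 0.416% ± 0.0387. Its remaining neighbour, a spot with no gene symbol, was at 0.103% ± 0.0594. On the whole array 5 spots had 3 direct neighbours above the floor, and Slc2a2 was the only one of the 5 above the floor itself. Of the spots with 0, 1 and 2 such neighbours, 33 of 163, 5 of 38 and 7 of 17 lay above it, so the count of 1 in 5 sets Slc2a2 apart in no way. The others of the 5 were Slc2a1, Slc2a3, the unnamed spot beside Slc2a2, and Pdha2, the testis form of pyruvate dehydrogenase. Pdha2, with Slc2a4 among its neighbours, stayed between 1.15 and 1.5 times the floor. Slc2a1 has Cd36, Fabp4 and Mdh2 beside it, and Slc2a3 has Slc2a4, Aldoc and Pdha1. What share of the Slc2a2 signal came from nearby spots was not tested.

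**Figure D2:**
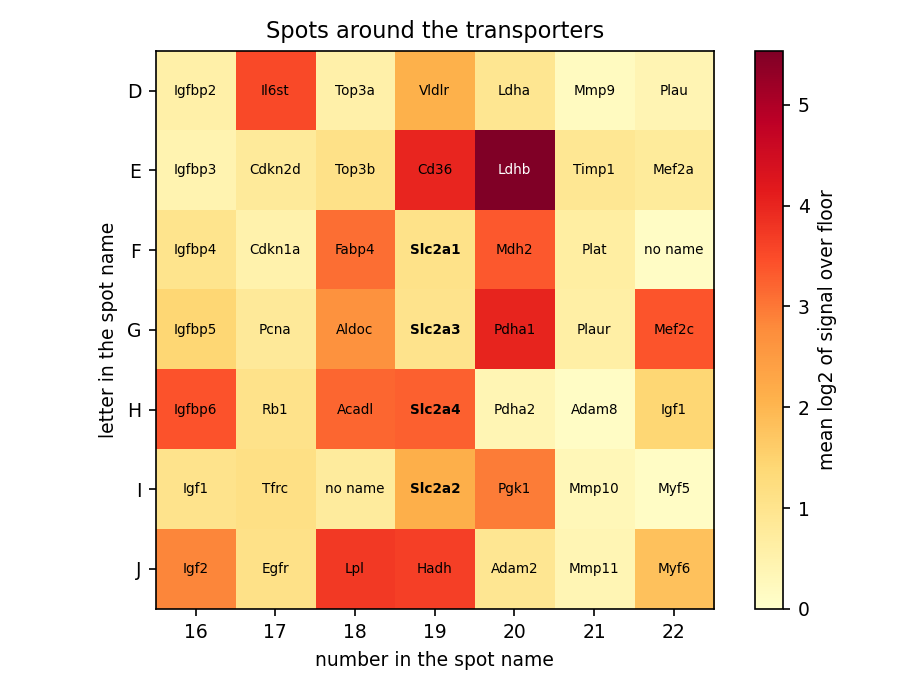
Mean log2 of signal over floor for the spots around the transporters, placed by the number (horizontal) and letter (vertical) in the spot name, with darker colour for a stronger signal. The transporters fill letters F to I of number 19. Slc2a1, Slc2a3 and Slc2a2 each have 3 neighbours above the floor, and of these only Slc2a2 lies above it.

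Ratios within an array do not depend on how the array was scaled. They compare signals of different spots, each with its own primer and probe, and so do not rank transcript amounts. The order Slc2a4 over Slc2a2 over both other forms held on 7 of 7 arrays. Slc2a4 gave 2.52, 3.73, 5.38, 4.88, 7.83, 5.42 and 3.63 times the signal of Slc2a1 in replicates 1 to 7, with a geometric mean of 4.51 (log2 ratio 2.17 ± 0.53, SD, n = 7). The ratio was smallest in replicate 1, with the highest floor, and largest in replicate 5, with the lowest.

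Against Slc2a3, Slc2a4 gave ratios of 2.30, 4.31, 6.14, 6.5, 6.71, 5.91 and 3.05, with a geometric mean of 4.66 (log2 ratio 2.22 ± 0.61, SD, n = 7). Replicates 1 and 7 were low and the other 5 lay higher. With the floor subtracted from each signal, the geometric means rose to 7.92 against Slc2a1 and 8.57 against Slc2a3, with single arrays from 5 to 12.7 and from 4 to 19. A denominator near the floor therefore left the size of these ratios uncertain, while Slc2a4 stayed the stronger signal on every array.

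The ratio of Slc2a4 to Slc2a2, both above the floor, was the tightest of the 6, though Slc2a1 to Slc2a3, both near it, was almost as tight. It was 1.66, 2.15, 2.15, 1.86, 2.61, 2.60 and 2.32 in replicates 1 to 7, with a geometric mean of 2.17 (log2 ratio 1.12 ± 0.24, SD, n = 7), and 2.56 with the floor subtracted. Slc2a2 gave 2.08 times the signal of Slc2a1 (log2 ratio 1.06 ± 0.39) and 2.15 times that of Slc2a3 (1.11 ± 0.52). With the floor subtracted these became 3.10 and 3.35, with single arrays from 2.22 to 5 and from 1.6 to 7.5. Slc2a1 and Slc2a3 had no fixed order: Slc2a1 was the stronger in 4 samples and Slc2a3 in 3, and their log2 ratio of 0.05 ± 0.25 was smaller than its spread.

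**Figure D3:**
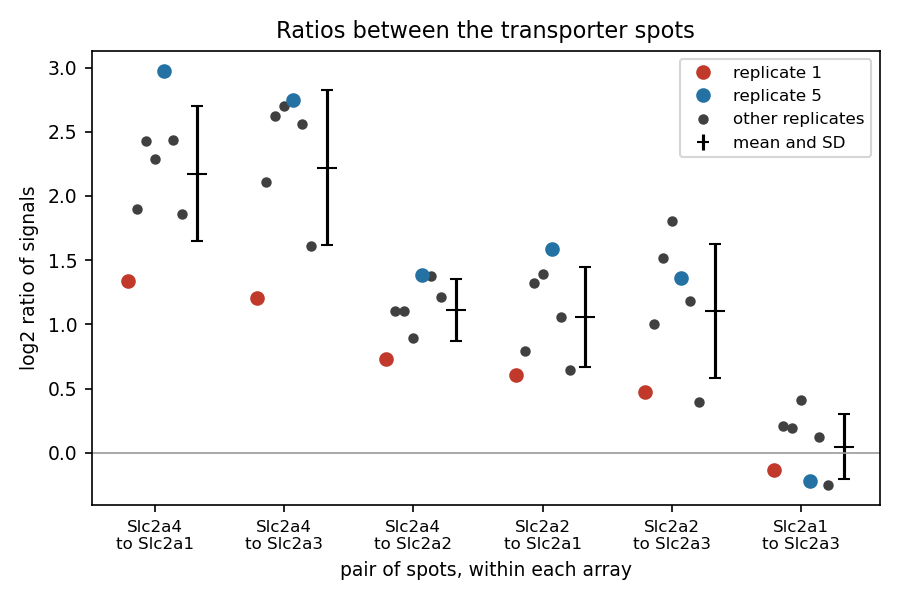
Log2 ratio of signals for the 6 pairs of transporter spots, with 1 point for each of the 7 arrays and the mean with its SD to the right of each set. Ratios with Slc2a4 or Slc2a2 on top lie above 0 on every array, are low in replicate 1, and spread least for Slc2a4 to Slc2a2; Slc2a1 to Slc2a3 straddles 0.

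Signals near the floor moved with it, which their place near it largely fixes. Slc2a1 stayed within 1.6 to 3 times the floor and Slc2a3 within 1.4 to 3.5 times, while the floor itself varied 6.5-fold. The p-values of these genes therefore add little to the statement that they lay near the floor. Over the 7 arrays, log2 Slc2a1 gave Pearson's r = 0.943 with log2 floor (exact permutation p = 0.00159, adjusted p = 0.00384 over 203 genes; Spearman's rho = 0.982, exact permutation p = 0.00159, adjusted p = 0.00393). For Slc2a3, r was 0.899 (exact permutation p = 0.00317, adjusted p = 0.00658; rho = 0.927, exact permutation p = 0.00635, adjusted p = 0.0109). With replicates 1 and 5 left out, whose floors lay farthest from the median, r was 0.836 and 0.929. This was the common pattern: 147 of the 203 genes (72.4%) rose with the floor at an adjusted exact p under 0.05, 142 of them among the 159 genes near it, so the result is nothing particular to these transporters. The differences between samples in Slc2a1 and Slc2a3 ran with the low end of the array, and whether any part came from the muscle was not tested.

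Slc2a2 also rose with the floor (r = 0.908, exact permutation p = 0.00635, adjusted p = 0.0113; rho = 0.882, exact permutation p = 0.0159, adjusted p = 0.0237), 1 of 5 among the 44 genes above the floor to do so. Its call was lost without replicate 1 (r = 0.847, adjusted exact permutation p = 0.0684) or without replicate 5 (r = 0.85, adjusted exact permutation p = 0.0649), and r was 0.678 without both. Slc2a4 did not pass (r = 0.569, exact permutation p = 0.189, adjusted p = 0.224; rho = 0.613, exact permutation p = 0.153, adjusted p = 0.184; r = 0.793 without replicates 1 and 5). Whether r differs between Slc2a4 and the other transporters was not tested. In size, Slc2a4 varied 1.67-fold and Slc2a2 1.78-fold between their lowest and highest sample, Slc2a1 3.50-fold and Slc2a3 3.83-fold, while the floor varied 6.5-fold.

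**Figure D4:**
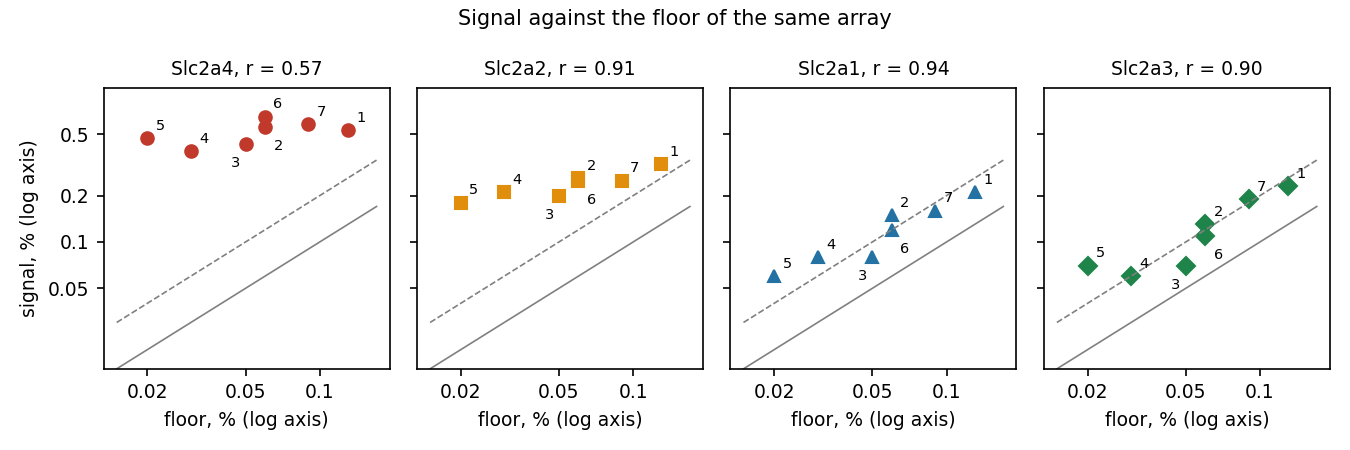
Signal of each transporter against the floor of the same array (both in percent, log axes), with the replicate number at each of the 7 points, the floor as a solid line and 2 times the floor as a dashed line. Slc2a1 and Slc2a3 run along the dashed line, Slc2a2 rises less steeply above it, and Slc2a4 lies between 0.39% and 0.65% with r = 0.57.

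In the deposited values, Slc2a4 and Slc2a2 spread less between samples than Slc2a1 and Slc2a3, an order that turned round with equal medians. The coefficient of variation was 17.6% for Slc2a4 and 19.6% for Slc2a2, beside a median of 23.4% over the 44 genes above the floor. Only 10 of the 203 genes had a smaller one than Slc2a4. It was 43.8% for Slc2a1 and 53.3% for Slc2a3, beside a median of 53.2% over the 159 genes near the floor. Quantile normalization forces all arrays to 1 common distribution. On that log2 scale the SDs were 0.22 for Slc2a4, 0.22 for Slc2a2, 0.21 for Slc2a1 and 0.20 for Slc2a3, beside a median of 0.25 over all genes. Single samples set part of these values: the SD of Slc2a1 was 0.10 without replicate 2, and that of Slc2a2 was 0.09 without replicate 7. With arrays scaled to equal medians the order turned round, with 0.54 for Slc2a4, 0.43 for Slc2a2, 0.21 for Slc2a1 and 0.15 for Slc2a3. The order of the transporters in spread thus depended on the scale.

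Subtracting the floor of each array left Slc2a2 nearly level. Its signal above the floor was 0.19%, 0.20%, 0.15%, 0.18%, 0.16%, 0.19% and 0.16% in replicates 1 to 7, or 0.176% ± 0.0190 (SD, n = 7). No sample stood apart, and the range of 0.05% is 5 steps of the deposited values. Its coefficient of variation fell from 19.6% to 10.8%, beside a median of 25.1% over the 44 genes above the floor treated alike. The subtraction lowered this value in 3 of the 44 genes, Slc2a2, the matrix protease inhibitor Timp2 and the lipoprotein receptor Vldlr. For Slc2a4 it made little difference, with 0.453% ± 0.0808 and 17.8%. Slc2a1 and Slc2a3 kept 0.06% each, with SDs of 0.0216% and 0.0316%. This subtraction was chosen after the values had been seen.

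**Figure D5:**
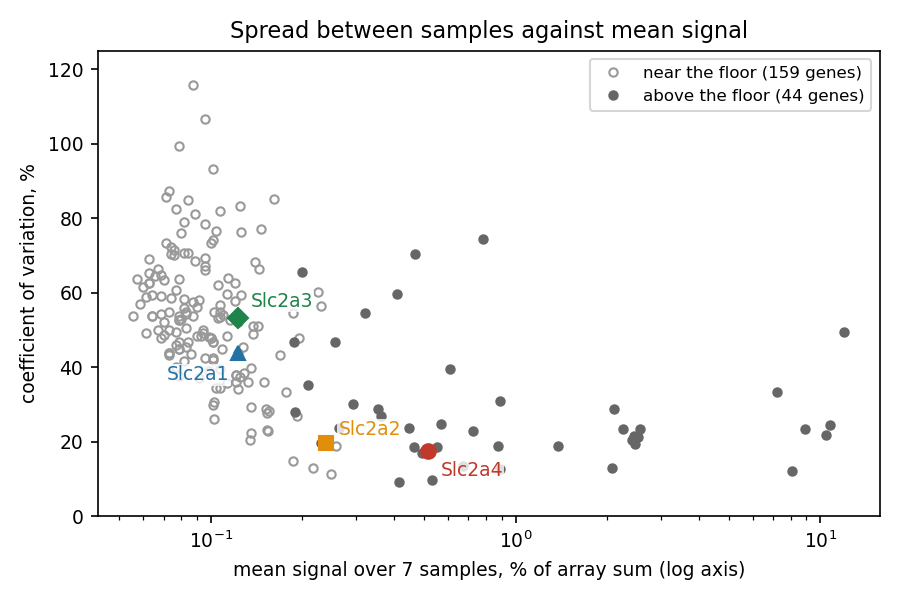
Coefficient of variation over the 7 samples against mean signal (log axis) for all 203 genes as deposited, with open circles for the 159 genes near the floor and filled ones for the 44 above it. Slc2a4 and Slc2a2 lie at 17.6% and 19.6%, under the 23.4% median of genes above the floor; Slc2a1 and Slc2a3 lie within the cloud of genes near the floor.

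No pair of transporters passed the test of varying together once arrays were brought to the same distribution, a test that a single pair could not have passed after adjustment over 201 genes. On the quantile-normalized log2 scale Slc2a4 gave r = 0.570 with Slc2a2, 0.471 with Slc2a1 and 0.122 with Slc2a3 (exact permutation p = 0.210, 0.248 and 0.775; adjusted p = 0.997 for each; rho = 0.642, 0.438 and 0.204, exact permutation p = 0.143, 0.352 and 0.641). Without replicates 4 and 5, r was 0.969, 0.461 and -0.382. Slc2a2 gave r = 0.420 with Slc2a1 and -0.391 with Slc2a3, and Slc2a1 gave 0.399 with Slc2a3 (exact permutation p = 0.164, 0.363 and 0.348; adjusted p = 0.522, 0.639 and 1; rho = 0.556, -0.126 and 0.150, exact permutation p = 0.212, 0.793 and 0.760). Leaving out the 2 farthest samples gave 0.354, 0.0110 and -0.596. In the deposited values the last 3 pairs had r = 0.972, 0.891 and 0.947 (adjusted exact permutation p = 0.0175, 0.0276 and 0.00921), where all 3 genes also moved with the floor.

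On the quantile-normalized scale no gene passed the test of following a transporter. With 7 samples a single gene at the smallest possible exact permutation p would have an adjusted p of 0.0798, so no gene could pass alone, and the count of 0 does not show that none followed. By the exact permutation test over 201 other genes, 0 (0%) passed the adjusted threshold for each of the 4, and 3, 24, 21 and 4 genes had an unadjusted exact p under 0.05 for Slc2a1, Slc2a2, Slc2a3 and Slc2a4. In deposited values 144 genes (71.3%) passed for Slc2a1, 121 (59.9%) for Slc2a2, 155 (76.7%) for Slc2a3 and 0 (0%) for Slc2a4, for which 12 genes had an unadjusted exact p under 0.05. With equal medians 28 genes (13.9%) passed for Slc2a2 and 4 (1.98%) for Slc2a4. The 3 genes most like Slc2a4 over the 7 samples on the quantile-normalized scale were the surface protein gene Cd34, the replication protein gene Rpa2 and Mdh2, mitochondrial malate dehydrogenase. Their r was 0.798, 0.795 and 0.725 (exact permutation p = 0.0349, 0.0381 and 0.0794; adjusted p = 0.997 for each; rho = 0.704, 0.753 and 0.630, exact permutation p = 0.0921, 0.0635 and 0.143). Without replicates 4 and 5, r was 0.699, 0.705 and 0.826. Cd34 and Rpa2 lay near the floor and Mdh2 above it.

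The 3 genes most like Slc2a2, all above the floor, were Fabp4 and Fabp3, the fatty acid binding proteins of adipocytes and of muscle, and Hadh. Their r was 0.933, 0.895 and 0.878 (exact permutation p = 0.0135, 0.0210 and 0.0238; adjusted p = 0.230, 0.235 and 0.252; rho = 0.793, 0.536 and 0.855, exact permutation p = 0.0397, 0.236 and 0.0206). Without replicates 5 and 7, r fell to 0.417 with Fabp4 and 0.102 with Fabp3 and was 0.810 with Hadh, so the first pair of values rested on those samples. Pgk1, outside the first 3, followed at r = 0.877. Hadh and Pgk1 are also spots next to Slc2a2. In deposited values r with Slc2a2 was 0.255 for Hadh and 0.780 for Pgk1.

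Slc2a1 was most like Ldha, the muscle form of lactate dehydrogenase, the topoisomerase gene Top3b and the hyaluronan receptor gene Cd44, all near the floor. Their r was 0.904, 0.809 and 0.742 (exact permutation p = 0.0857, 0.05 and 0.0595; adjusted p = 1 for each; rho = 0.621, 0.667 and 0.673, exact permutation p = 0.157, 0.112 and 0.110), and 0.512, 0.758 and 0.172 without replicates 2 and 6. Slc2a3 was most like the integrin gene Itga2, 28S ribosomal RNA (Rn28s1) and the topoisomerase gene Top3a, with r = 0.943, 0.931 and 0.862 (exact permutation p = 0.00317, 0.0381 and 0.0778; adjusted p = 0.383, 0.411 and 0.437; rho = 0.954, 0.804 and 0.436, exact permutation p = 0.00476, 0.0762 and 0.328). Without replicates 3 and 4, r was 0.919, 0.427 and -0.496, so that of Itga2 alone stayed near its value. Itga2 and Top3a lay near the floor. The spots of Ldha, Top3b and Top3a lie close to those of Slc2a1 and Slc2a3 in the map of spots around the transporters, and the part of position in these values was not tested.

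Most of the listed genes on the array that act after glucose has entered a cell lay above the floor. Of 10 listed genes of glucose phosphorylation, glycolysis and pyruvate use on the array, 7 were called (background 21.7% of all genes): Aldoa, Aldoc, Gapdh, Pgk1, Eno2, Ldhb and Pdha1. Hk1, a hexokinase that traps glucose in the cell by phosphorylation, lay near the floor at 0.1% ± 0.0733 (SD, n = 7), 1.11 to 2 times it. Ldha and Ldhc did as well. The list did not hold Pfkfb2 and Pdha2, genes of the same families on the array, which also lay near the floor. Pgk1 had the smallest coefficient of variation of the 44 genes above the floor, 9.30%, beside 17.6% for Slc2a4.

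Few genes that act on the transporters were on the array, and the shares called are to be read beside the 21.7% of all genes. Of 19 genes of insulin signalling and transporter vesicles, 2 were on the array, the insulin receptor Insr at 0.0957% ± 0.0643 (SD, n = 7) and Igf1r, the receptor of insulin-like growth factor 1, at 0.0814% ± 0.0644. Neither exceeded 2 times the floor on any array. Of 5 known regulators of Slc2a4 on the array, 1 was called, Mef2c, a muscle transcription factor of the family that binds the Slc2a4 promoter, at 0.571% ± 0.142. Mef2a, of the same family, was at 0.1% ± 0.0480, and Myod1, Ppara and Pparg also lay near the floor. Of the 4 hypoxia factors on the array, Hif1a, Arnt, Vhl and Vegfa, 0 were called, again beside 21.7% of all genes. With so few genes, these counts show nothing particular to the lists. The lists for other sugar transporters, glycogen and lactate transport had 0 genes on the array.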

How the data were processed

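Per the labels' protocols, 4 microg of total RNA from cryosections of each muscle was labelled by reverse transcription from gene-specific primers with a radioactive nucleotide (1 colour). The authors deposited 1 linear ratio per spot and sample, for 223 spots. Without the unnamed spot 1M and the 28S spot, columns summed to between 0.9986 and 1.0002, so values are given as a percent of that sum. The software and background treatment were not given in the sources used here. Precision is limited by the number of arrays. No 2 columns were identical; replicates 2 and 6 shared the most values, 64.

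Gene names came from the platform annotation (205 spots with 1 symbol, 18 with none, 0 with several). The 2 spots of Igf1 and of Fn1 were averaged on the log2 scale. Levels and ratios are as deposited. Medians and totals lay within 10% of their mean in 1 of 7 columns, so spreads and likeness use quantile normalization over all spots, then log2, with no pseudocount. Correlations were tested two-sided over the 5040 possible sample pairings (the smallest p possible is 0.000397), with Benjamini-Hochberg adjustment over all genes, in Python 3.11.15 with numpy 2.4.6, and checked on simulated data. Car3, without spread after normalization, was left out of the likeness tests. Members and gene lists were chosen with earlier results of these data known. Genes were named by rule: the transporters, the 3 genes most like each, list members above the floor, and otherwise the first 3 of a list. Genes named beside the transporters' spots, at the limit of the floor call or in lists beyond that rule were chosen after their values were seen. The floor, its multiple, the scale and each replicate were varied. No sequences or coordinates are given.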

Additional observations from a re-analysis of the deposited data

Results flagged for a closer look

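Of 46 sets of 7 values examined, 3 had a sample far from the others; chance alone does so in about 1 of 20. Slc2a1 on the quantile-normalized scale was high in replicate 2, with a gap of 0.602 of the whole range, although its deposited 0.15% there lay inside the range of the others. Ldha, the gene most like it, was high in the same sample, with a gap of 0.695. Slc2a3 over the floor was high in replicate 5, at 3.50 against 1.40 to 2.17, with a gap of 0.635; rounding of the deposited values allows 2.60 to 5 there. The cause was not tested in these 3 cases.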

How the results depend on the processing

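The count of 2 transporters above the floor was 2 with a floor at the 5th or 20th percentile, with a floor over other named spots, and without any 1 replicate; it was 3 at 1.5 times the floor, where Slc2a1 joined, and 1 at 3 times. With the floor subtracted, the ratio of Slc2a4 to Slc2a1 was 7.92 in place of 4.51 and that to Slc2a3 8.57 in place of 4.66, since the subtraction takes the largest share from the weakest signals. In deposited values the spread was 0.65 for Slc2a1 and 0.76 for Slc2a3 (log2 SD), and with equal medians it was 0.54 for Slc2a4 and 0.43 for Slc2a2, above Slc2a1 and Slc2a3, the opposite of the deposited order; the cause was not tested. Without 1 replicate the quantile-scale SD ranged from 0.10 to 0.25 for Slc2a1 (lowest without replicate 2) and from 0.09 to 0.28 for Slc2a2 (lowest without replicate 7). Counts of genes correlated with Slc2a1, Slc2a2 and Slc2a3 were 144, 121 and 155 in deposited values against 0, and with equal medians 28 for Slc2a2 and 4 for Slc2a4, a scaling that shifts all genes of an array alike. Without 1 replicate, r of Slc2a2 with the floor ranged from 0.847 to 0.958 and was not past the threshold without replicate 1 or 5. For Slc2a1 it ranged from 0.909 to 0.985 and for Slc2a3 from 0.835 to 0.954, past the threshold each time, and for Slc2a4 from 0.439 to 0.654, not past it. In these settings Slc2a4 stayed the stronger signal in each of its ratios, and r with the floor stayed positive for each transporter. Single replicates were not left out for the ratios among the other transporters. A floor from spots away from the transporters, added after seeing the data, gave r identical in all digits for all 4. It is therefore no separate check on position. No paired analysis was possible because the series has 1 group.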
